A study of Mus musculus with 3 samples.

Results

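The 34 genes described here drive the cell cycle and DNA replication, and they were examined for summits of H3K9ac, an acetylation of histone H3 known from active promoters. They were given as a list, chosen by no measured value but with earlier results of these data known. By textbook phase they were grouped into 11 G1 genes, 13 S genes and 10 mitosis genes. All 34 were found among the 21887 protein-coding records on chromosomes 1 to 19, X and Y in the RefSeq table of GRCm38.p6 (the same coordinates as mm10). A gene was said to have an end summit when its record had a summit up to 1 kb from either end, and a summit anywhere when there was one at an end or inside the record.

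Cells enter the cycle when D-type cyclins with Cdk4 or Cdk6, and then cyclin E with Cdk2, release E2F factors that switch on the genes of DNA synthesis. Replication origins are licensed by Orc1, Cdc6 and Cdt1, which load the Mcm helicase onto DNA, and geminin blocks Cdt1 until the next cycle. Cyclin A and cyclin B with Cdk1, the Aurora kinases and Plk1 then bring the cell through mitosis, and most adult haematopoietic stem cells (HSCs) are known to rest outside the cycle.

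The summits came from CUT&Tag, in which an antibody directs a transposase to the mark so that the DNA around it is cut and tagged. Sorted HSCs from the bone marrow of wild-type mice were used, with 1 library for each of 3 groups: young HSC (2 to 4 months), old HSC (18 to 24 months) and old HSC ABC (18 to 24 months, with ABC not spelled out in the labels). The number of mice behind each library is not given in the sources used. The young list held 33248 summits, the old list 108787 and the ABC list 45386. Sample names written inside the summit names went against the labels: the list labelled young carried oHSC-H3K9ac-1, the list labelled old carried oHSC-ABC-H3K9ac-1 and the list labelled old ABC carried oHSC-H3K9ac-2. Groups below follow the labels, so young, old and ABC mean the libraries so labelled. With 1 library per group no difference had a replicate check and none was tested. As a check of the cell label, end summits were found at 6 (young), 7 (old) and 4 (ABC) of 9 HSC markers (Procr, Meis1, Gata2 and Tek in each). They were also found at 5, 7 and 5 of 8 granulocyte and monocyte markers, 2, 4 and 3 of 6 erythroid markers, 1, 2 and 1 of 6 B cell markers, 2 in each library of 6 T and NK cell markers, and 1, 3 and 2 of 6 markers of stroma and endothelium. Over all protein-coding genes the shares were 41.9%, 56.9% and 43.6%, so these small counts do little to check the label, above all in the ABC library. The part of other cells in the results below was not tested. In such bulk libraries a mark in few cells and a weak mark in many cells cannot be told apart.

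RefSeq promoter windows, which run from 250 bases before to 50 after a start site, were at hand for 27 of the 34 genes. Below are 6 of them, 5′ to 3′ on the gene's own strand, in GRCm38.p6 coordinates. Capitals mark the letters of 3 motifs named for factors or elements known at cell cycle promoters: E2F (TTCCCGC with its variant TTCGCGC, and TTGCCGC with its variant TTGGCGC), the cell cycle homology region or CHR (TTTGAA with its variant TTCGAA), and the CCAAT box (CCAAT), each on either strand, so that a match to the other strand is capitalised as its reverse complement. Cdk6, Cdc6 and Cdk1 are shown because their end summits had the best median rank among the G1, S and mitosis genes with a window, and Orc1 because it had no end summit in any library. Mcm6 and Top2a were added after their values were seen, as the windows where the E2F letters and the CHR and CCAAT letters recur most plainly.
Cdk6, chr5:3343643-3343942, plus strand: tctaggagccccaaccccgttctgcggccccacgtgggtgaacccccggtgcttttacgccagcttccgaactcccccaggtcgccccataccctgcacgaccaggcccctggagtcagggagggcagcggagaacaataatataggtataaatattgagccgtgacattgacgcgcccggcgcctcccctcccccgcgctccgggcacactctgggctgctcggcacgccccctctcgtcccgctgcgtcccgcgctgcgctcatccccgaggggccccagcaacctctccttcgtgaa
Orc1, chr4:108579204-108579503, plus strand: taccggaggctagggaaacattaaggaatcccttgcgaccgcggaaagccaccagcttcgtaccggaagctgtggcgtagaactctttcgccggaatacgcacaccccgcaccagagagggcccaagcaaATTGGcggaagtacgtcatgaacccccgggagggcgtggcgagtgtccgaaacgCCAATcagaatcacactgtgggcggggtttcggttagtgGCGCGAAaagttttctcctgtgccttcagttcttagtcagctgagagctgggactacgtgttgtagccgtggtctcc
Cdc6, chr11:98907901-98908200, plus strand: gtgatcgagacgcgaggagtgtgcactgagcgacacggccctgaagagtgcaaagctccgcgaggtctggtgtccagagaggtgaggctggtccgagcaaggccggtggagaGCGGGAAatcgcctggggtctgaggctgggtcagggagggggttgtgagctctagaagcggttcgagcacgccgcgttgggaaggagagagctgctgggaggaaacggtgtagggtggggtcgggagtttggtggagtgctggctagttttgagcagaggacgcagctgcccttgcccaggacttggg
Mcm6, chr1:128359656-128359955, minus strand: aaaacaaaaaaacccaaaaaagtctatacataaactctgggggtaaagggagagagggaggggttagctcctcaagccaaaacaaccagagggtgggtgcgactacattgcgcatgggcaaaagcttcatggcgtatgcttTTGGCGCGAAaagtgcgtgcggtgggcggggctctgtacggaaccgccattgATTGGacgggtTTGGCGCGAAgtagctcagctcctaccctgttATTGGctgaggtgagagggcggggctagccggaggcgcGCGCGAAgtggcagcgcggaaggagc
Cdk1, chr10:69352863-69353162, minus strand: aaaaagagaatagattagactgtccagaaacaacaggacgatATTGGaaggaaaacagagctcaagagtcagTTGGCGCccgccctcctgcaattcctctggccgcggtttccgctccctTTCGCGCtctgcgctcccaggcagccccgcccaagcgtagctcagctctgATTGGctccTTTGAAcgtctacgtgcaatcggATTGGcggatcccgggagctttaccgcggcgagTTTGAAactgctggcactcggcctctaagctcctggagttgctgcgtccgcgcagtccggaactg
Top2a, chr11:99024140-99024439, minus strand: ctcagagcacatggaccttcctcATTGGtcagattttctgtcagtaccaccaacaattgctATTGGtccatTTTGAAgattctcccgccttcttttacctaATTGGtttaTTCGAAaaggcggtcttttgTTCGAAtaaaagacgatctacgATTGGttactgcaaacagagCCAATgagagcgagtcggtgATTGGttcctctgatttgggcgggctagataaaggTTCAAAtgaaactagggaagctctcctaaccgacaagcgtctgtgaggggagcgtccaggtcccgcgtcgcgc
The Cdk6 window held none of the motifs. The Orc1 window held 1 E2F match and 2 CCAAT boxes, and the Cdc6 window 1 E2F match, 138 bases before the start. In the Mcm6 window 5 E2F matches stood with 2 CCAAT boxes, and 4 of the 5 formed 2 overlapping pairs. The Cdk1 window carried matches to all 3 motifs, among them CHR letters 71 and 15 bases before the start. Top2a had 6 CCAAT boxes and 4 CHR matches, the last of them 23 bases before the start, and no E2F match.

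H3K9ac summits were found at the ends of most of the 34 genes in each library. An end summit was present at 29 of 34 in the young library (85.3%, 95% Clopper-Pearson interval 68.9 to 95.0), at 30 in the old library (88.2%, 72.5 to 96.7) and at 27 in the ABC library (79.4%, 62.1 to 91.3), against 41.9%, 56.9% and 43.6% of all protein-coding genes. These intervals cover counting error only. In all 3 libraries an end summit was present at 24 of the 34 genes, where 36.3% of all protein-coding genes had one. Only Ccnd2 and Orc1 had none in any library, and 40.1% of all genes had none. Counted anywhere in the record, summits were present at 32, 34 and 31 of 34 (58.2%, 73.7% and 62.1% of all genes), with a median record length of 14.5 kb for the 34 genes and 17.2 kb for all genes.

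**Figure D1:**
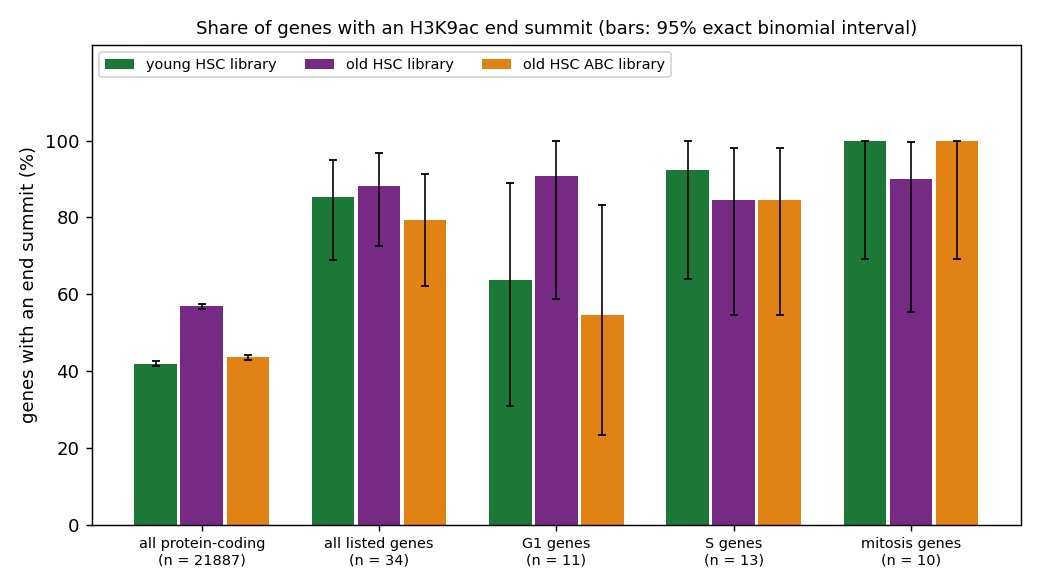
Share of genes with an H3K9ac end summit (y axis, percent) in the young, old and ABC libraries, for all 21887 protein-coding genes, the 34 listed genes and their G1, S and mitosis groups, with 95% exact binomial intervals that cover counting error only. The 34 genes stood at 79.4% to 88.2%, all genes at 41.9% to 56.9%, and the intervals of the 3 phases overlapped.

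By phase, end summits were found in the young, old and ABC libraries at 7, 10 and 6 of 11 G1 genes, at 12, 11 and 11 of 13 S genes, and at 10, 9 and 10 of 10 mitosis genes. The shares over all protein-coding genes were 41.9%, 56.9% and 43.6%. Intervals of the G1 genes in the young (30.8 to 89.1) and ABC libraries held the share of their library. So did those of the S genes (54.6 to 98.1) and the mitosis genes (55.5 to 99.7) in the old library. The lowest share was that of the G1 genes in the ABC library, 54.5% (23.4 to 83.3), and its interval overlapped that of the mitosis genes there, which began at 69.2%. Overlap of intervals does not test a difference, and no order of the phases was tested. Present in all 3 libraries were 5 of 11 G1 genes, 10 of 13 S genes and 9 of 10 mitosis genes, where 36.3% of all protein-coding genes were. The G1 interval there, 16.7 to 76.6, held that share.

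Within-list rank is given as the top percent: the place of a gene's strongest end summit when all summits of that list are ordered by the authors' score, as a percent of list length, so that a small value is near the top. A long list lowers these values by itself, so they are not compared between libraries. The median over the genes with an end summit was 14.4% in the young library (n = 29), 5.47% in the old (n = 30) and 15.5% in the ABC library (n = 27), beside 18.6%, 7.69% and 15.9% for all protein-coding genes with one. In the same order the G1 medians were 29.6%, 13.8% and 9.42%, the S medians 15.2%, 5.13% and 15.5%, and the mitosis medians 11.3%, 4.42% and 21.7%. The spread inside each phase was wide, and the top percent of the 34 genes ran from 0.908 to 73.0 in the young library, from 0.528 to 34.4 in the old and from 1.6 to 72.8 in the ABC library.

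**Figure D2:**
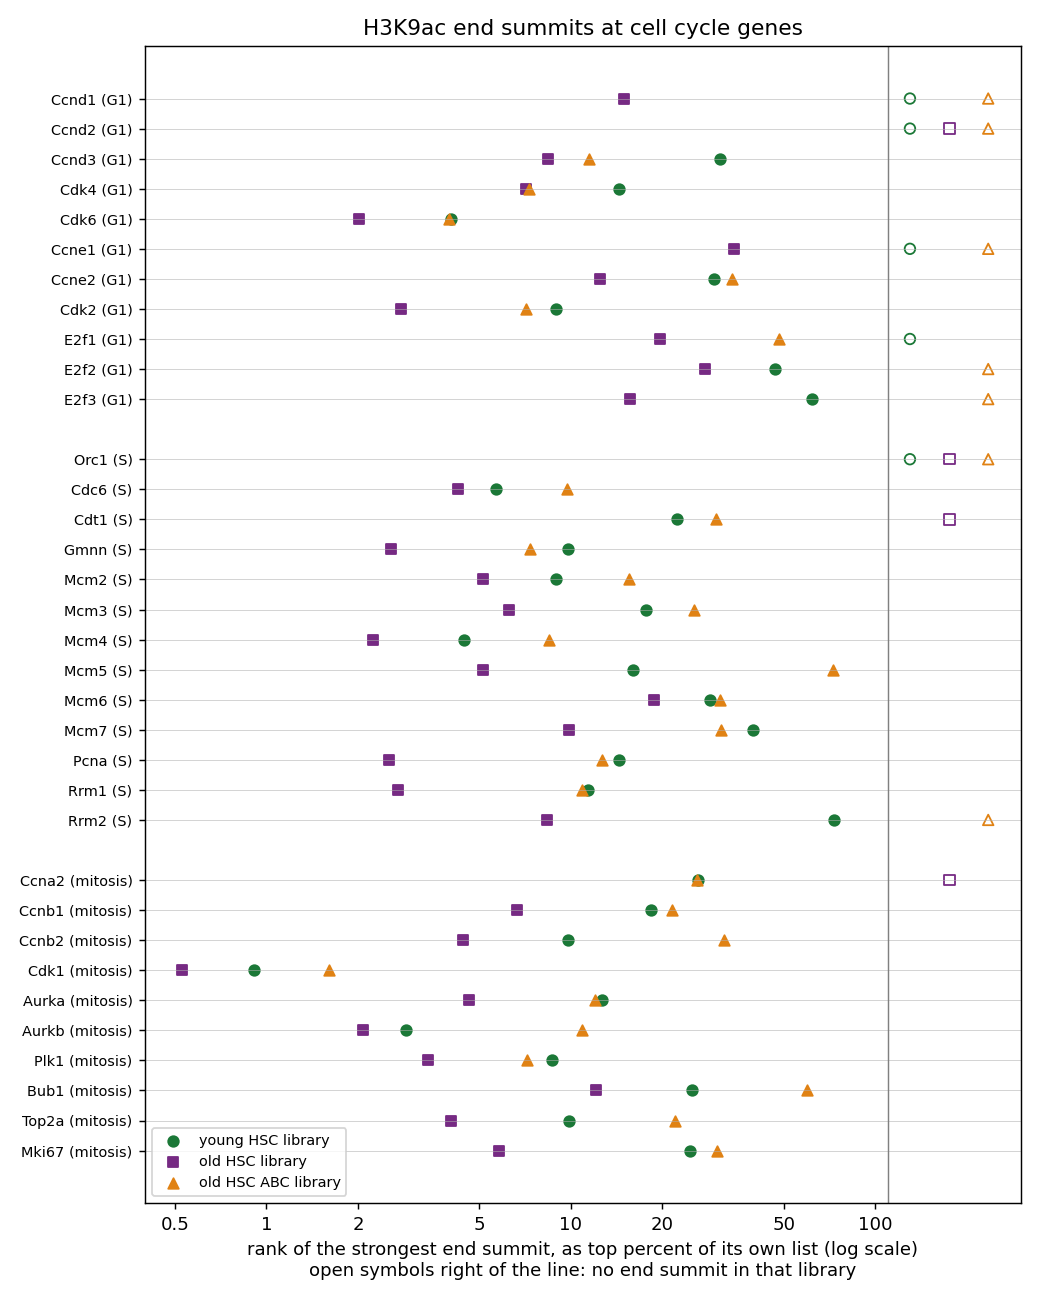
Within-list rank of the strongest end summit of each of the 34 genes (x axis, top percent on a log scale, strongest at the left) by library, with genes grouped by phase; open symbols at the right mark genes without an end summit. Cdk1 was nearest the top in every library (0.908%, 0.528% and 1.6%).

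Among the D-type cyclins, which sense growth signals, the 3 genes differed from each other. Ccnd2 (chromosome 6, 127125162 to 127152188) had no end summit, but it had a strong summit further inside its record, 2207, 2438 and 2429 bp from the nearest end, with scores of 21.5, 56.1 and 26.0 and ranks 1343, 1016 and 574 in the young, old and ABC lists (top 4.04%, 0.934% and 1.26%). Near Ccnd2 the mark was thus among the stronger summits of every list, and its absence from the count of end summits follows from the 1 kb window. Ccnd1 had an end summit in the old library only, 60 bp inside its record with a score of 10.2 (top 15.0%), and the nearest summits in the young and ABC libraries lay 1975 and 2213 bp away, at the neighbouring LTO1 record. Ccnd3 had one in each library, with scores of 6.61, 17.5 and 10.4 (top 30.8%, 8.41% and 11.5%).

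Cdk4 and Cdk6, the kinases that pair with the D-type cyclins, had an end summit in every library. Cdk6 had the strongest end summit of the G1 genes (chromosome 5, 3341004 to 3531008), with scores of 21.5, 42.7 and 17.3 (top 4.05%, 2.02% and 3.99%). This summit lay 2107, 2107 and 2231 bp upstream of the start site of the window printed above, because the record begins earlier. Within the 190.0 kb Cdk6 record lay 12 (young), 28 (old) and 14 (ABC) summits. An inner Cdk6 summit recurred 97319, 97445 and 97570 bp into the record at the top 6.17%, 7.64% and 9.86%. For Cdk4 the scores were 11.7, 20.2 and 13.2 (top 14.4%, 7.15% and 7.31%), at 104, 802 and 800 bp after the start.

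Of the cyclin E genes, which act with Cdk2 at the entry into S phase, Ccne2 was marked in each library 86 to 90 bp outside its record (top 29.6%, 12.5% and 33.8%). Ccne1 had only a weak end summit in the old library, with a score of 5.41 (top 34.4%), and its nearest summits in the young and ABC libraries were 41419 and 20455 bp away. Cdk2 was marked in every library with scores of 15.3, 37.1 and 13.4 (top 8.91%, 2.77% and 7.12%), and each of these summits also lay inside the Pmel record or within 1 kb of its end. The E2F genes code for the factors that switch on S phase genes, and their end summits were weaker and less complete. E2f1 had one in the old and ABC libraries, with scores of 8.21 and 4.02, and in the young library a summit of 7.02 that lay 728 bp from its start site but 1194 bp inside its record. E2f2 had one in the young and old libraries, with scores of 4.72 and 6.28, beside stronger summits of 8.4 and 14.4 2653 and 2689 bp inside, and the ABC list had nothing within 31046 bp of its ends. E2f3 had one in the same 2 libraries, with scores of 3.64 and 9.79, next to a stronger one 1142 bp inside (5.86 and 26.0), and its nearest ABC summit lay 6585 bp from an end.

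Of the genes that license origins, Cdc6 had an end summit near its start in each library, with scores of 18.8, 29.5 and 11.4 (top 5.68%, 4.27% and 9.68%), at 42 bp after and 25 and 89 bp before the start. All 3 fell inside the Cdc6 window printed above. Orc1 (chromosome 4, 108575705 to 108616030) had none by the end rule, because its record begins well upstream of the start site of its window. At that start site Orc1 had summits in each library, with scores of 12.0, 34.5 and 17.1 (top 13.9%, 3.21% and 4.08%) at 503 and 355 bp before and 19 bp after it, in a region shared with the Prpf38a record. Cdt1 had an end summit of 8.65 in the young library, 387 bp after its start, and of 5.6 in the ABC library, 48 bp before it. The old library had its Cdt1 summit 1262 bp after the start with a score of 20.7, and the ABC library a stronger one of 11.7 at 1490 bp. The strongest Cdt1 summits of the old and ABC libraries thus lay within 500 bp of each other, and that of the young library lay nearer the start. With ends within 2 kb Cdt1 was marked in all 3. Gmnn, which codes for geminin, was marked in every library with scores of 14.6, 38.5 and 13.2 (top 9.76%, 2.56% and 7.35%).

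All 6 Mcm helicase genes had an end summit in each library. Mcm4 had the strongest end summit of them, with scores of 20.7, 40.9 and 12.3 (top 4.45%, 2.24% and 8.45%), at a region shared with Prkdc. Mcm2 came next among end summits in the young library, with scores of 15.3, 26.1 and 8.6 (top 8.93%, 5.14% and 15.5%), at 299 to 302 bp after its start in all 3. Mcm3 had scores of 10.2, 22.6 and 6.27, and Mcm7, which shares its region with Ap4m1, had 5.4, 15.0 and 5.46. Mcm5 had 10.9, 26.1 and 2.85. In the ABC library a stronger Mcm5 summit of 7.02 lay 967 bp after the start, just beyond the window around the record end. Mcm6 was caught by the end rule through minor summits, 13 bp after its start in the young and ABC libraries (7.0 and 5.5) and at its 3′ end in the old one (8.41). Its strongest summits lay 1285, 1591 and 1368 bp after the start, with scores of 13.1, 32.1 and 14.2 (top 11.9%, 3.7% and 6.31%). At the Mcm6 promoter printed above, the small summits of the young and ABC libraries were in the window and the main ones were downstream of it.

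Pcna, the sliding clamp of the replication fork, was marked in each library with scores of 11.7, 38.7 and 9.77 (top 14.4%, 2.53% and 12.7%) in a region shared with Cds2. Rrm1 and Rrm2 are the subunits of ribonucleotide reductase, which makes the DNA precursors, and they differed. Rrm1 had scores of 13.4, 37.6 and 10.7 (top 11.4%, 2.71% and 10.9%), at 310, 121 and 121 bp after its start. Rrm2 had 3.06 in the young library, where a summit of 8.5 also lay 1312 bp after the start, and 17.7 in the old library. The ABC list had no Rrm2 summit within 10239 bp of an end.

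The mitotic kinase Cdk1 (chromosome 10, 69335146 to 69352912) had the strongest end summit of the 34 genes in every library. Its scores were 34.3, 65.2 and 24.1, at ranks 302, 574 and 724 of the young, old and ABC lists, and the summit lay 381, 381 and 383 bp after the start, within 2 bp across the libraries. Its partners Ccnb1 and Ccnb2, the B-type cyclins, were marked throughout. Ccnb1 had scores of 9.97, 21.4 and 6.98 at 461 to 463 bp after the start, and Ccnb2 had 14.5, 29.0 and 5.37. Ccna2, the A-type cyclin that also acts in S phase, had an end summit in the young and ABC libraries with scores of 7.59 and 6.16. A stronger Ccna2 summit was present in all 3 libraries beyond the window, 1449, 1566 and 1567 bp inside the record, with scores of 14.1, 38.0 and 15.0 (top 10.4%, 2.64% and 5.69%).

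The kinases of spindle assembly and its checkpoint were marked in each library. Aurkb, the chromosomal passenger kinase, stood second among the mitosis genes in the young and old libraries, with scores of 24.2, 42.3 and 10.7 (top 2.87%, 2.07% and 10.9%). Aurka, which acts at the spindle poles, had 12.6, 28.1 and 10.1 in a region shared with Cstf1. Plk1 had 15.5, 33.6 and 13.4 (top 8.68%, 3.4% and 7.16%), at 991, 915 and 920 bp after its start. Bub1, a checkpoint kinase, had the weakest marks of the phase in the old and ABC libraries, with 7.82, 12.5 and 3.43. Of the remaining genes of dividing cells, Top2a, which untangles DNA, had 14.5, 30.6 and 6.86 (top 9.85%, 4.03% and 22.0%), at 650, 406 and 406 bp after its start, downstream of the CCAAT and CHR letters of the window above. Mki67, which codes for the proliferation marker Ki-67, had 7.99, 24.0 and 5.57 (top 24.6%, 5.8% and 30.3%), at 576 to 597 bp after its start.

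An end summit was present in some libraries and absent from others at 8 of 34 genes (23.5%), and at 23.6% of all protein-coding genes. The share was near that of all genes. In the old library and not in the young were Ccnd1, Ccne1 and E2f1, 3 of 34, where 16.6% of all protein-coding genes were, and in the young and not in the old were Cdt1 and Ccna2, 2 of 34 against 1.59%. In the ABC library and not in the old were again Cdt1 and Ccna2 (2.23% of all genes), and in the old and not in the ABC were Ccnd1, Ccne1, E2f2, E2f3 and Rrm2, 5 of 34 against 15.6%. In the ABC library and not in the young was E2f1 alone (6.43% of all genes), and in the young and not in the ABC were E2f2, E2f3 and Rrm2, 3 of 34 against 4.78%. These comparisons share libraries and are not independent of each other. Cdt1 and Ccna2, absent by the rule from the old library, had old summits of 20.7 and 38.0 at 1262 and 1566 bp inside the record. Across the main setting and 7 alternatives, Ccnd1 and Rrm2 differed between the old and ABC libraries in all 8, and every other difference named here was lost in at least 1. With a score minimum of 10, no gene was present in the young and absent from the old library, and with ends within 2 kb none was either.

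Positions were compared at the genes marked in both libraries of a pair. Strongest end summits lay within 500 bp of each other at 24 of 25 genes marked in both the ABC and old libraries (87.2% of all such genes), at 23 of 26 in the young and ABC libraries (86.9%) and at 21 of 27 in the young and old libraries (88.0%). The median gaps were 38, 138 and 105 bp, beside 84, 90 and 82 bp over all genes. In the same order the exact binomial intervals of the shares were 79.6 to 99.9, 69.8 to 97.6 and 57.7 to 91.4. Each interval held the share of all such genes, so the differences from it are within counting error. Both pairs with the young library had larger median gaps than over all genes, a difference that was not tested. Where the strand was known, the strongest end summit was at the 5′ end in 24 of 24 genes of the young library, 24 of 25 of the old (the exception was Mcm6) and 22 of 22 of the ABC library, beside 94.0%, 88.6% and 91.5% over all genes. A summit within 1 kb of a start site was present at 26, 25 and 23 of the 27 genes with a known start, where 45.5%, 57.9% and 46.3% of all genes had one. The genes without were Ccne1 in the young library, Cdt1 and Mcm6 in the old, and Ccne1, E2f2, E2f3 and Rrm2 in the ABC library.

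Summits tended to lie after the start rather than on it, at the listed genes as over all genes. Of the strongest end summits within 1 kb of a start, 19 of 23, 15 of 23 and 14 of 21 were downstream in the young, old and ABC libraries, beside 68.9%, 66.8% and 67.6% over all genes. The mitosis genes (8 in each library) had signed medians of 422, 393 and 394 bp after the start. Those of the G1 genes (5, 7 and 4) were 416, 277 and 507 bp, and of the S genes (10, 8 and 9) 74, 58 and 13 bp. Over all genes they were 181, 134 and 140 bp. In these medians upstream distances are negative and offset downstream ones. Without the sign the S medians were 306, 117 and 121 bp, and the G1 medians 416, 642 and 507 bp. The mitosis medians were then 422, 393 and 434 bp, and those of all genes 293, 262 and 268 bp. Inside the 300-base promoter window itself a summit was found at 5, 6 and 9 of 27 genes (12.2%, 16.2% and 13.8% of all genes), and at 0, 1 and 4 of 8 mitosis genes. The 0 in the young library is thus a matter of position, since 8 of 8 of these genes had a summit within 1 kb of the start.

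**Figure D3:**
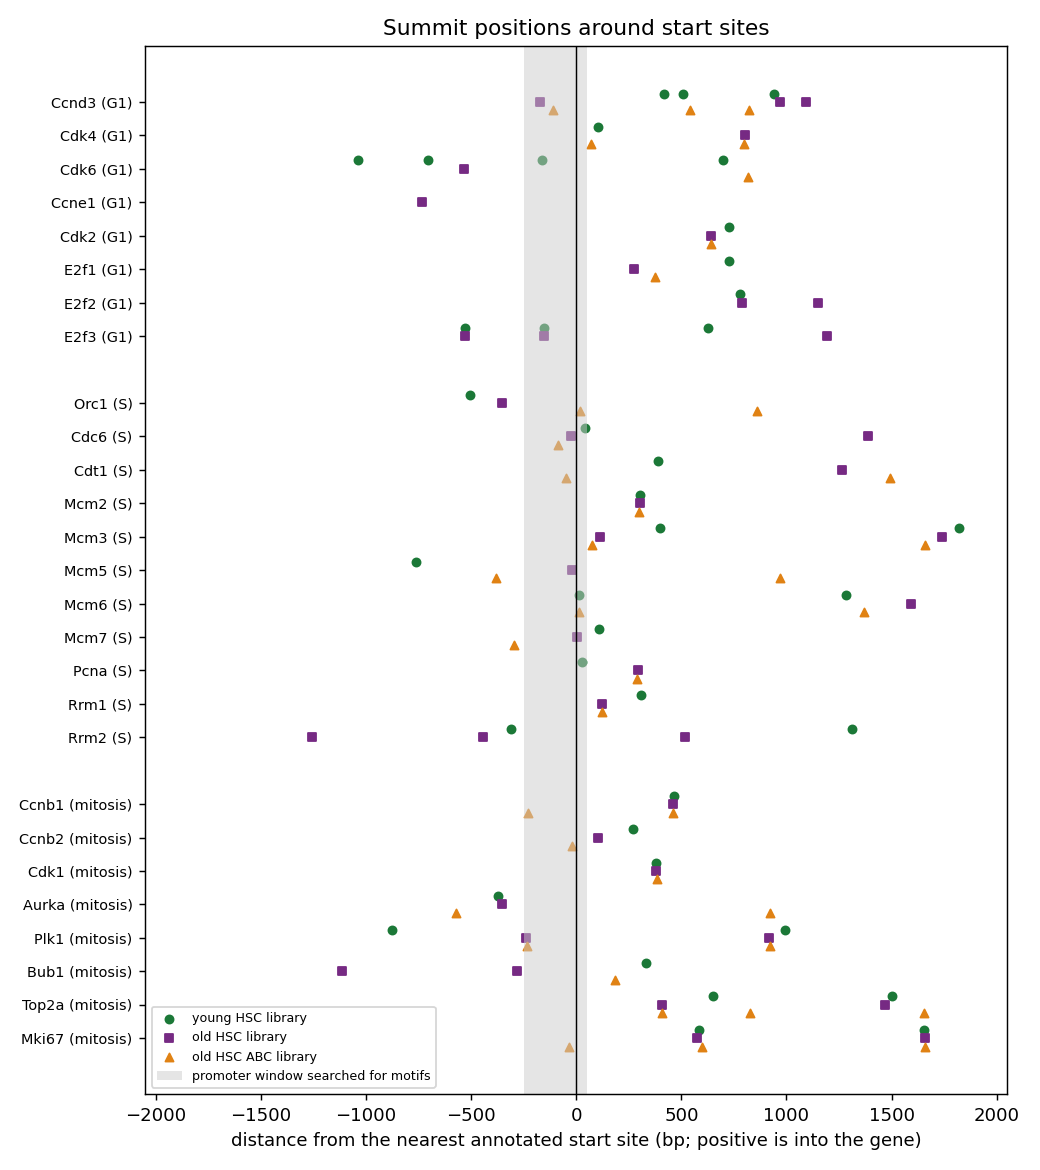
Every summit near an annotated start site of the 27 listed genes with a known start, by its distance from the nearest one (x axis, bp, positive into the gene), with a symbol for each library and the promoter window in grey. Cdk1 had its summit 381 to 383 bp after the start in all 3 libraries, and the main Mcm6 summits lay 1285 to 1591 bp after it.

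Summits deeper in the records were mostly those of G1 genes. Counting the records and their ends, the 34 genes had 66 (young), 132 (old) and 83 (ABC) summits, of which 32, 94 and 43 were not at an end (48.5%, 71.2% and 51.8%, against 60.4%, 79.7% and 67.6% over all genes). The G1 genes held 21, 68 and 25 of these, the S genes 7, 16 and 12 and the mitosis genes 4, 10 and 6. Cdk6 and Ccnd3, the longest 2 records at 190.0 and 94.6 kb, are both G1 genes. In this count Cdk6 had 12, 28 and 14 summits, of which 1, 1 and 2 were at an end. Ccnd3 had 4, 19 and 7, of which 1, 3 and 2 were at an end, so these 2 genes held most of the deeper G1 summits. The median record length was 14.3 kb for G1, 15.3 kb for S and 14.3 kb for mitosis genes. The strongest summit of a gene, end or not, was at an end in 23 of 32 genes of the young library, 27 of 34 of the old and 20 of 31 of the ABC library, where it was so for 63.2%, 62.4% and 59.0% of all genes with a summit. With summits anywhere ranked, the median top percent was 13.3, 4.88 and 11.5, beside 20.4, 8.02 and 17.7 over all genes.

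To set the libraries beside each other on a scale of the same length, genes were also ranked among the 7950 that had an end summit in all 3 libraries. In this measure, added after the data were seen, the middle gene stands at 50. Whether list length still affected the places in this set was not tested. The 24 listed genes in that set had a median of 39.7% in the young library, 49.9% in the old and 48.4% in the ABC library. The mitosis genes (n = 9) stood at 33.1%, 49.0% and 68.8%, the S genes (n = 10) at 41.8%, 51.4% and 53.1%, and the G1 genes (n = 5) at 45.8%, 71.2% and 31.6%. Left out was the mitosis gene Ccna2, which had no end summit in the old library. Its stronger summit beyond the window had ranks 3469, 2875 and 2583 in the young, old and ABC lists. That summit was thus nearer the top in the ABC list than in the young. All 9 mitosis genes of the set were nearer the top in the young than in the ABC library (49.7% of all 7950 genes were), 8 of 9 nearer in the young than in the old (49.8%), and 7 of 9 nearer in the old than in the ABC library (50.1%). Of the 24 genes, 20, 19 and 14 were nearer the top in the first library of these same 3 pairs. Of the 5 G1 genes, all were nearer the top in the ABC than in the old library, and all nearer in the young than in the old.

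Single genes show the size of these shifts. Aurkb stood at 9.61%, 24.0% and 43.9% in the young, old and ABC libraries, Top2a at 33.1%, 45.1% and 69.5%, and Ccnb2 at 33.0%, 49.0% and 80.1%. Cdk1 moved little, from 2.79% to 5.86% and 6.72%, and Plk1 stood at 29.7%, 38.5% and 31.0%. Among the G1 genes Cdk4 stood at 45.8%, 71.2% and 31.6%, and Cdk2 at 30.4%, 31.6% and 30.9%. Mcm5 stood at 50.1%, 55.3% and 96.6%, a place that rests on the end summit of 2.85 and leaves out the stronger one just past the window. No replicate measured how far such places vary between libraries of 1 group, and the effect of the crossed sample names was not tested. By the names inside the lists, the young and ABC lists would be oHSC-H3K9ac-1 and oHSC-H3K9ac-2, and the shift of the mitosis genes between them, from 33.1% to 68.8%, would then lie between libraries of the same kind.

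**Figure D4:**
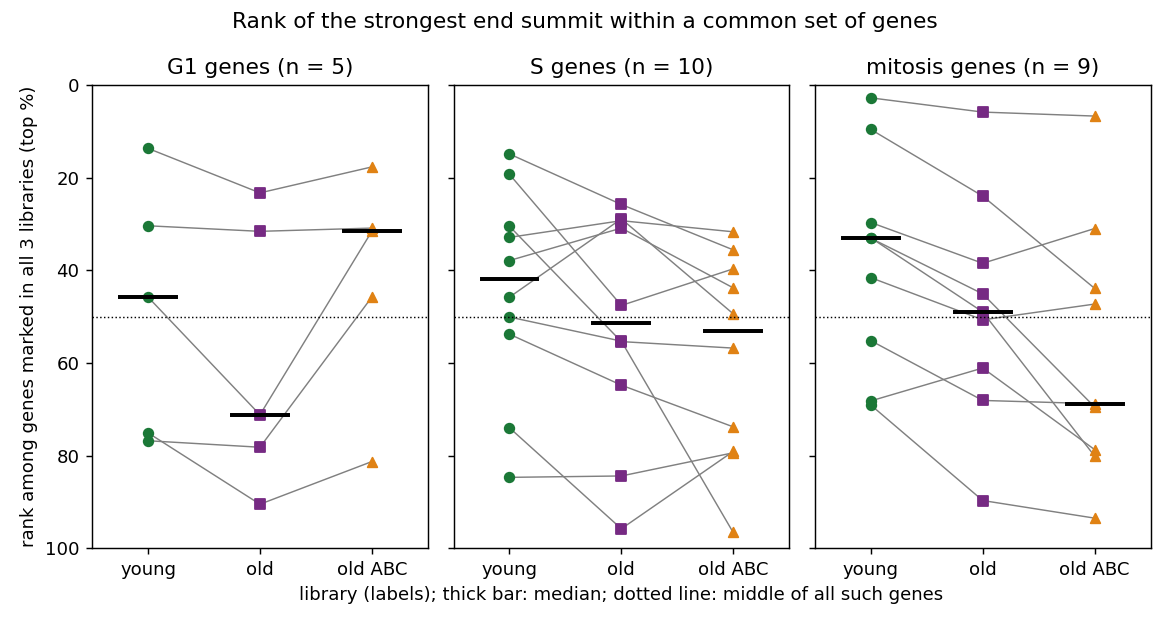
Rank of the strongest end summit among the 7950 genes with one in all 3 libraries (y axis, top percent, strongest at the top) for 24 listed genes, in panels for G1, S and mitosis genes, with a line for each gene, a bar for the median and a dotted line for the middle of all such genes. The mitosis median, without Ccna2, which is not in that set, stood at 33.1%, 49.0% and 68.8% in the young, old and ABC libraries.

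Promoter letters were found at different counts in the 3 phases. Over the 27 genes with a window, E2F letters were found in 15 (55.6%), CHR letters in 11 (40.7%) and a CCAAT box in 21 (77.8%), where 13.7%, 20.2% and 42.3% of all 17492 protein-coding genes with a window held them. E2F letters were in 9 of 11 S genes (81.8%, 48.2 to 97.7), 3 of 8 G1 genes and 3 of 8 mitosis genes (37.5%, 8.52 to 75.5, for each). CHR letters were in 7 of 8 mitosis genes (87.5%, 47.3 to 99.7), 2 of 11 S genes and 2 of 8 G1 genes. The CCAAT box was in 8 of 8 mitosis genes, 9 of 11 S genes and 4 of 8 G1 genes. CHR and CCAAT letters stood together in 7 of 8 mitosis genes (9.24% of all genes), E2F and CCAAT letters in 7 of 11 S genes (6.35%), and none of the 3 in 4 of 8 G1 genes (40.4%). The windows of the listed genes had a median GC content of 58.0% and 24 CpG, against 56.3% and 13 over all windows, and E2F letters hold a CpG. E2F letters 1 base shorter were found in 5 of 8 G1, 11 of 11 S and 6 of 8 mitosis genes, beside 48.1% of all genes. The intervals of the phases overlapped for each motif, which does not test a difference, and none between phases was tested. Matches to different motifs overlapped in the windows of Mcm7 and Ccnb1. A match is a description of the letters and not of a bound factor.

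**Figure D5:**
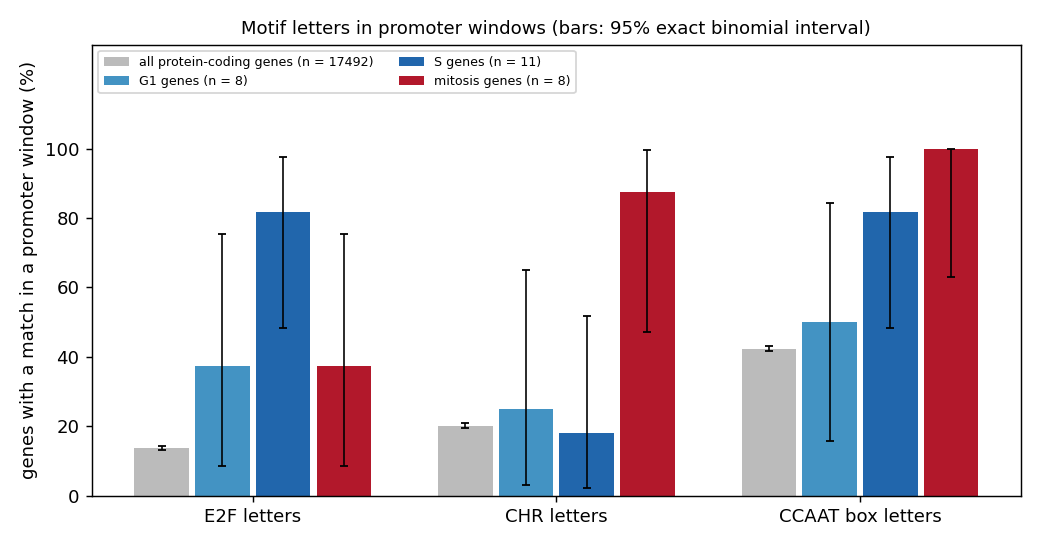
Share of genes with E2F, CHR or CCAAT letters on either strand of a promoter window (y axis, percent) for all 17492 protein-coding genes and for the G1, S and mitosis genes with a window, with 95% exact binomial intervals. The S genes stood highest for E2F letters (81.8%) and the mitosis genes for CHR letters (87.5%).

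Over all protein-coding genes, a summit within 1 kb of the start was present more often with E2F letters, at 66.9%, 79.9% and 65.7% in the young, old and ABC libraries against 42.1%, 54.4% and 43.2% without them. For CHR letters the shares were 37.9%, 47.9% and 38.7% with and 47.4%, 60.4% and 48.2% without them, and for the CCAAT box 46.3%, 58.7% and 46.7% against 45.0%, 57.3% and 46.0%. The mitosis genes with CHR letters were thus marked (each had a start-site summit in every library) although genes with these letters at large were marked less often than others. E2F, CHR and CCAAT letters differ in base composition, and its part in these shares was not tested.

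A wider list of 99 other genes of the same pathway was counted in the same way. End summits were present at 87, 92 and 84 of 99 (87.9%, 92.9% and 84.8%), against 41.9%, 56.9% and 43.6% of all protein-coding genes. The wider G1 genes (n = 18) stood at 88.9%, 94.4% and 83.3%, the 11 listed ones at 63.6%, 90.9% and 54.5%. An end summit was in the old and not the young library at 6 of 99 (16.6% of all genes), and the reverse at 1 (1.59%). For old and not ABC it was 11 (15.6%), and the reverse 3 (2.23%). For ABC and not young it was 5 (6.43%), and the reverse 8 (4.78%). Of the genes that differed both as deposited and in lists of equal length, Tipin, which steadies the replication fork, and Foxm1, a factor for mitotic genes, had an end summit in the old library (29.6 and 23.1) and the ABC library (11.1 and 4.91) and not in the young. Their nearest young summits lay 1013 and 1110 bp from an end, just past the window. Gins3, of the GINS part of the helicase, and Tfdp1, the partner of E2F factors, had old summits of 24.3 and 24.1, and no ABC summit within 13871 and 5284 bp. Cdc25b, a phosphatase that activates Cdk1, had 9.88 and 8.32 in the young and ABC libraries and its nearest old summit at 1079 bp. In the set of 7950 genes, the wider mitosis genes (n = 32) stood at a median of 44.8% in the young library, 44.3% in the old and 53.7% in the ABC library. That is a smaller shift than over the 9 listed mitosis genes, and the 2 lists were not tested against each other. The wider S genes (n = 32) stood at 40.3%, 48.3% and 38.3%, and the wider G1 genes (n = 14) at 13.9%, 25.0% and 40.7%, where the listed G1 genes stood at 45.8%, 71.2% and 31.6%. The order of the libraries thus differed between the listed and the wider G1 genes, and the place of the 5 listed ones was not that of the wider G1 genes.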

How the data were processed

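The submitters' processing notes name MACS2, BWA, Picard and edgeR, with mm10 as the build. The sources used here do not give versions, roles or settings. Each of the 3 deposited lists held summits of 1 bp with a score, read here as the authors' −log10 q-value because every list begins at 1.3, the −log10 of 0.05. Scores rank or filter summits within a list. Read depth is unknown, and a longer list may come from deeper sequencing.

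Gene records and promoter windows were taken from RefSeq tables of GRCm38.p6, which give no exons or strand for records. Strand and start sites came from the promoter windows. The 34 genes, the wider and marker lists and the tests were chosen with earlier results of these data known. All 34 genes are named. A marker gene of the HSC list is not reported here and was left out of its count. Wider genes are named where they differed both as deposited and in lists of equal length (the 33248 highest-scoring summits of each), up to 4 per comparison and direction by score, of which the text gives some. Counting was checked on simulated summits. Python 3.11.15, pandas 2.3.3, NumPy 2.4.6, SciPy 1.17.1 and matplotlib 3.10.9 were used. The alternatives were score minimums of 5 and 10, ends within 500 bp or 2 kb, start sites only, merged close summits, summits at 1 gene only, equal-length lists, other tolerances for a shared position, Ccna2 with the S genes, other ranked sets and shorter E2F letters.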

Additional observations from a re-analysis of the deposited data

How the results depend on the processing

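Of the values recomputed under an alternative, 130 stayed within 1.5 times the main value in either direction, and 57 moved beyond that or to 0. The order of a pair of values turned in some settings. With ends within 500 bp, ABC and not young had 6 genes and young and not ABC 2, where the main counts were 1 and 3. The median top percent in the old library, below that in the young library as deposited, was above it in equal-length lists (16.8 against 14.4) and among genes marked in all 3 (49.9 against 39.7). With a score of at least 10, end summits were left at 17 of 34 genes in the young and 12 in the ABC library, at 3 (young) and 6 (old) G1 genes, 4 S genes (ABC) and 6 (young) and 4 (ABC) mitosis genes. The differences were then 8 old and not young, 0 young and not old, 0 ABC and not old, 13 old and not ABC, and 6 young and not ABC. With a score of at least 5 they were 6 old and not young, 8 old and not ABC and 0 ABC and not young. With ends within 500 bp, 19 genes were marked in the young library, with 4 (young) and 5 (old) G1 genes and 5 mitosis genes (young), and the differences were 6 old and not young, 4 ABC and not old and 6 ABC and not young. With ends within 2 kb there were 0 young and not old, 0 ABC and not old and 0 ABC and not young. With summits at 1 gene only there was 1 young and not old and 1 ABC and not old. The median top percent became 40.7, 38.5 and 49.2 (young, old, ABC) among gene-end summits, 39.7, 49.9 and 48.4 among genes marked in all 3, and 16.8 in the old library with equal-length lists. E2F letters 1 base shorter were in 5 G1 and 6 mitosis genes. No paired analysis was possible because each group had 1 library and no result came from a test. Read depth is unknown, so a gene without a summit may lie below detection.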
